A study of Mus musculus with 6 samples.

Results

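Imprinted genes are read mainly from 1 parental allele, and 37 of them were followed in cerebral cortex of mouse embryos with and without CAP1, a regulator of actin that helps filaments to be taken apart. The members were listed by name as known imprinted genes of the mouse, and all 37 symbols were found among the 27179 genes of the table. RNA was sequenced from cortex of C57BL/6N embryos at E18.5. The CAP1-KO group (3 libraries, FCRE3, FCRE4 and FCRE5) carried the genotype Cap1flx/flx,Nestin-CRE, in which the Nestin promoter drives Cre in neural progenitors, so that cells of other origin in the same tissue are not the target of the deletion. The Control group (3 libraries, FF1, FF2 and FF4) carried Cap1 flx/flx without Cre. Both groups share the flanked Cap1 alleles, and no group carried Cre alone. Values are in CPM, read counts per gene scaled to library size by the authors' factors, and are listed in the order of the libraries just given.

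Imprinting is laid down in the germ line as DNA methylation of control regions, and each such region governs a domain of neighbouring genes. Many paternally expressed genes promote growth of the embryo and many maternally expressed ones restrain it, with IGF2 and its clearance receptor IGF2R as the classic pair. The brain expresses many imprinted genes, and several of them are known for high levels in the hypothalamus and other ventral regions. The embryos came from 1 inbred strain and the table gives 1 value per gene and library, so the parental alleles were not told apart, and a change in level says nothing of which allele was read.

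Levels of region and cell type markers differed between libraries, also within the Control group. Depth, recovered from the values, was 32443864 to 36302598 reads a library, and Cap1 measured 86.6, 85.9 and 82.9 CPM in CAP1-KO, against 194, 193 and 166 CPM in Control. The 9 cortex markers summed to 2143 to 2337 CPM in CAP1-KO, against 3187 CPM in FF1, 3253 CPM in FF2 and 2154 CPM in FF4. The 11 striatum markers summed to 241 to 266 CPM in CAP1-KO, against 148, 144 and 296 CPM in Control, and the ventral forebrain gene Nkx2-1 averaged 15.8 ± 2.80 CPM in CAP1-KO (SD, n = 3), against 1.96, 1.64 and 17.3 CPM in Control. In these sums the Control library FF4 lay with the CAP1-KO libraries and apart from FF1 and FF2. It was nearer the CAP1-KO mean than the mean of FF1 and FF2 for 8 of 9 cortex and 9 of 11 striatum markers. The same held for 63.8% of all genes tested. The exceptions in the striatum list were Ppp1r1b, at 30.7, 26.7 and 29.8 CPM in CAP1-KO, against 46.9, 46.4 and 42.9 CPM in Control, and Drd1, at 15.2 to 15.9 CPM in CAP1-KO, against 16.9 to 19.4 CPM in Control. Ppp1r1b was the 1 striatum marker called, and it fell (limma adjusted p = 0.00689). The 14 hypothalamus markers summed to 21.1 to 27.2 CPM in CAP1-KO, against 5.77, 4.38 and 25.4 CPM in Control, and most of the sum in CAP1-KO and FF4 was Nkx2-1 itself. Pomc and Oxt did not follow FF4, and Agrp, Avp, Pmch and Hcrt were near 0. Of the 14 markers 3 were tested and 0 were called (limma, 2 at an unadjusted p under 0.05), and Nr5a1 and Hmx3 had 0 reads in every library. The 12 meningeal fibroblast markers summed to 111 and 102 CPM in FCRE4 and FCRE5 and to 25.8 CPM in FCRE3, against 21.4 to 23.1 CPM in Control, with 0 of 9 tested called (limma, 7 at an unadjusted p under 0.05) and no marker at 0 in all libraries. The 10 choroid plexus markers, mostly Ttr, summed to 105, 121 and 55.5 CPM in CAP1-KO, against 2.89 to 7.73 CPM in Control, and 1 of 5 tested was called (Ttr). The 10 microglia markers summed to 86.6 to 113 CPM in CAP1-KO, against 58.4 to 74.6 CPM in Control. Xist marked FF2 and the CAP1-KO libraries as female (2296 to 2653 CPM) and FF1 and FF4 as male (0.58 and 2.05 CPM). In bulk tissue, fewer cells of a type and less RNA per cell cannot be told apart.

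**Figure D1:**
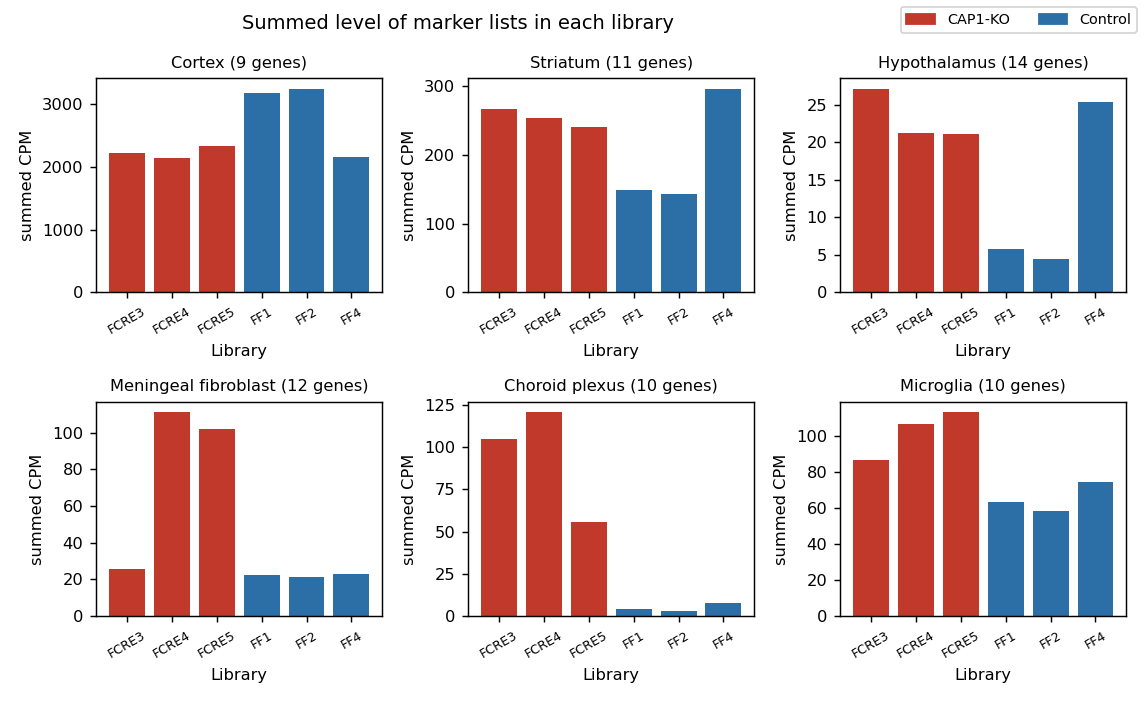
Summed level (CPM, vertical axis from 0) of 6 marker lists in each library, CAP1-KO in red and Control in blue. In the cortex, striatum and hypothalamus lists FF4 stands with the CAP1-KO libraries, and the meningeal list is high in FCRE4 and FCRE5, at 111 and 102 CPM.

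Most imprinted genes were level or modestly higher in CAP1-KO, and few passed the test. Of the 37, 34 had a mean of at least 1 CPM and were tested, with limma on log2(CPM + 1) and Benjamini-Hochberg adjustment over 13885 genes. H19 and Impact rose and Kcnk9 fell, so that 3 of 34 (8.82%) were called at an adjusted p under 0.05. Of all tested genes 0.965% were called, 0.562% as higher and 0.403% as lower. A further 6 had an unadjusted p under 0.05 (9 of 34 in all), against 23.0% of all genes tested. The fold change was positive for 26 of 34 (76.5%), against 48.3% of all genes tested, and the members' median log2 fold change was 0.18, against -0.01 over all genes. The CAP1-KO libraries lay above every Control library for 6 members and below for 2, 8 of 34 in all, where 11.1% and 14.6% of all tested genes did so, 25.6% in all. Per library, the median difference from the Control mean (log2) was 0.22, 0.21 and 0.12 in the CAP1-KO libraries, against -0.08 in FF1, -0.09 in FF2 and 0.19 in FF4. That of FF4 lay within the range of the CAP1-KO libraries.

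**Figure D2:**
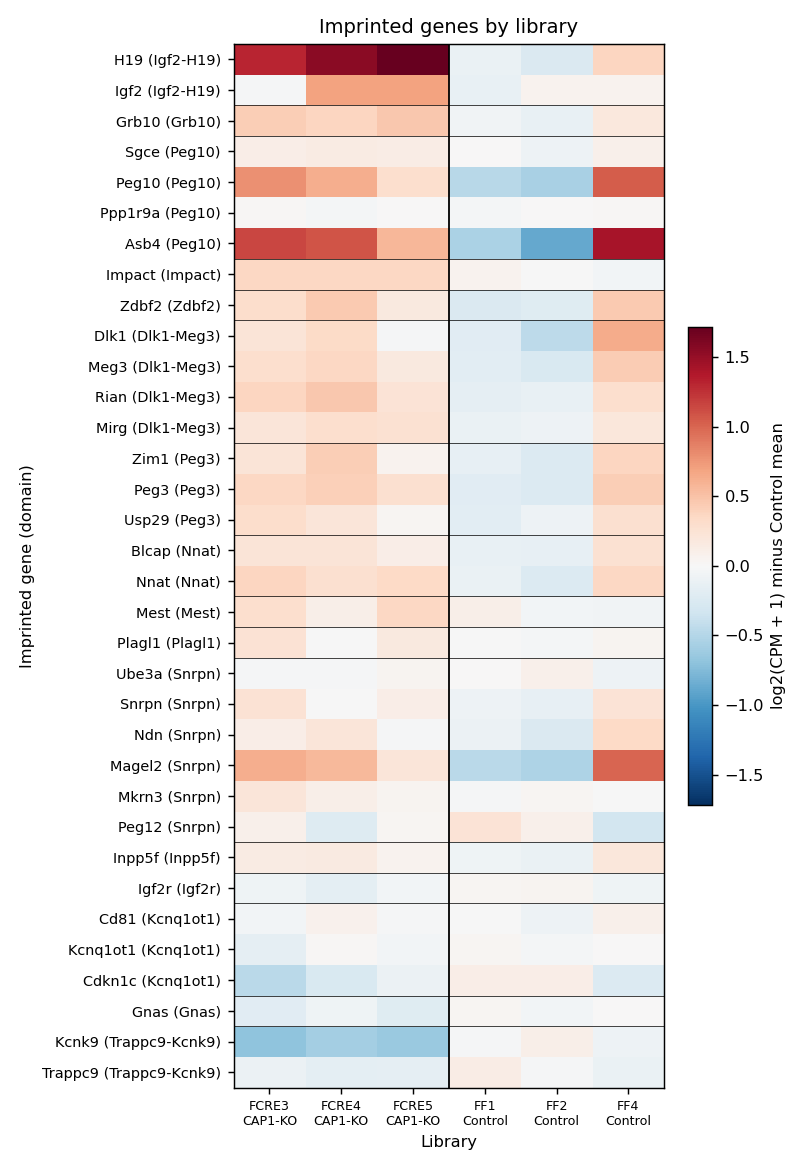
Difference of each of the 34 tested imprinted genes from its Control mean in each library, on the log2(CPM + 1) scale (colour), with genes grouped by imprinted domain. H19 is the deepest red in the CAP1-KO libraries, Kcnk9 is blue in all of them, and the FF4 column resembles them for Peg10, Asb4 and Magel2.

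The count depended on which libraries entered. Without FF4 18 members rose and 3 fell, 61.8% of 34, where 28.2% of all tested genes were called (9.31% higher, 18.9% lower). Against FF4 alone 1 rose and 0 fell (H19), 2.94% of 34, where 0.401% of all genes were called, the members' median was -0.05, and 12 of 34 fold changes were positive. With Nkx2-1 as a covariate H19 and Impact rose and none fell, 5.88% of 34, where 0.576% of all genes were called, and the median was again -0.05. The last pair of settings was chosen after the data were seen. With the Xist level as a covariate 0 of 34 were called by limma, 10 at an unadjusted p under 0.05, where 0.187% of all genes were called, and against FF2, the female Control library, 14 rose and 1 fell, 44.1% of 34, where 13.2% of all genes were called (4.61% higher, 8.58% lower). Without FF1 the count was 0 and without FCRE5 it was 0, where 0.309% and 0.260% of all genes were called. By limma 5 members had an unadjusted p under 0.05 without FF1, and 6 without FCRE5. Without FF2 the count was 1 (0.445% of all genes), without FCRE3 it was 2 (0.519%) and without FCRE4 it was 3 (1.82%). With the scaling, filter or pseudocount changed, the count stayed at 3 where 0.943%, 0.965%, 0.979%, 0.994%, 1.12% or 1.14% of all genes were called, and was 2 of 37 with no filter on low values, where 0.413% were. Fits with a single Control library take that library to vary as the CAP1-KO libraries do.

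**Figure D3:**
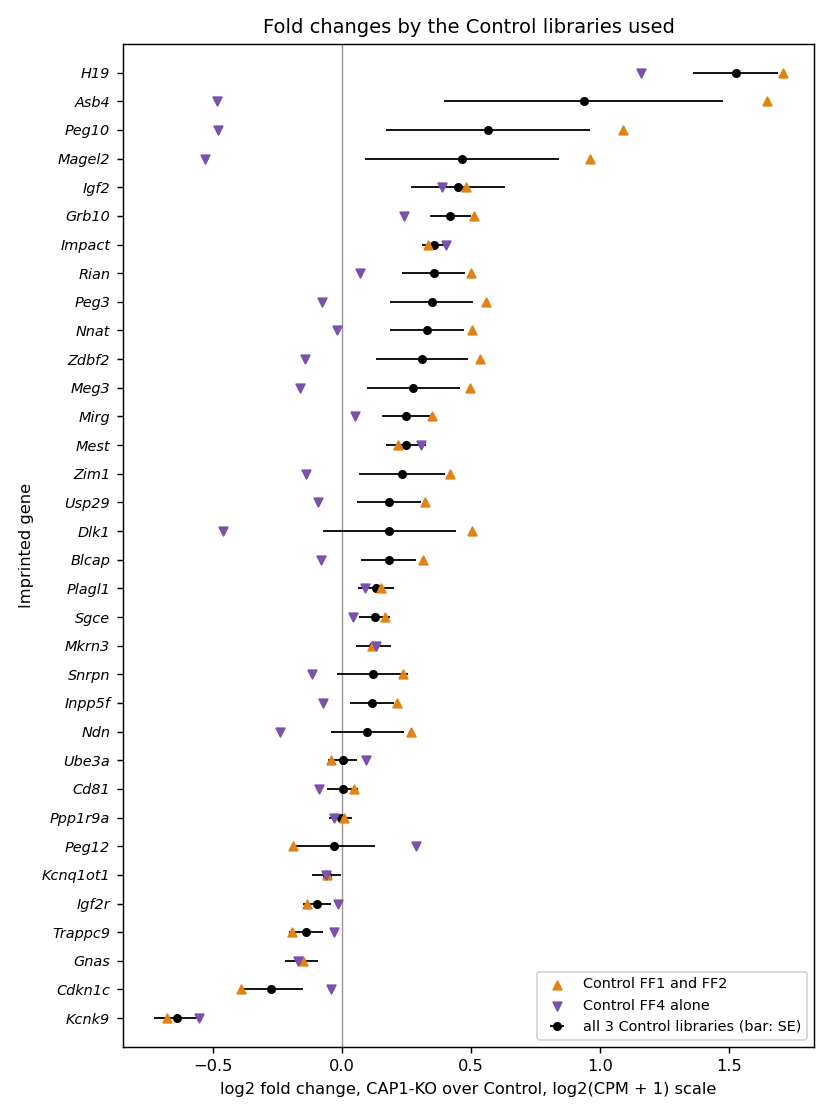
log2 fold change (CAP1-KO over Control, log2(CPM + 1) scale) of the 34 tested imprinted genes with all Control libraries (black points, bars are SE), with FF1 and FF2 (orange) and with FF4 alone (purple). H19, Igf2, Grb10, Impact and Kcnk9 keep their side of 0 whichever Control libraries are used, while Asb4, Peg10, Magel2 and Dlk1 cross it.

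The Igf2-H19 domain held the strongest change. H19, a noncoding RNA of the maternal allele that is abundant in embryonic mesoderm, measured 80.5, 95.1 and 107 CPM in CAP1-KO, against 29.3, 26.7 and 41.4 CPM in Control. The groups did not overlap, and FF4 was the highest of the Control libraries. H19 rose 2.90-fold (log2 fold change 1.52, SE 0.17, limma adjusted p = 0.00689), and the authors' deposited table gives an FDR of 0.0461. Of 18 alternatives it kept its call in 15, with log2 fold changes of 1.16 to 1.77 over all 18, and lost it with the Xist covariate (limma adjusted p = 0.0571), without FF1 (limma adjusted p = 0.0523) and without FCRE5 (limma adjusted p = 0.0513). FCRE3, where H19 was also above every Control library, had a meningeal sum of 25.8 CPM and a choroid plexus sum of 105 CPM. The 9 mural cell markers summed to 160 to 184 CPM in CAP1-KO, against 168 to 180 CPM in Control, and 0 of 9 were called (limma, 2 at an unadjusted p under 0.05). The 10 endothelial markers summed to 158 to 182 CPM in CAP1-KO, against 198 to 219 CPM in Control. Of 9 tested 2 were called, both lower (Flt1 and Kdr), where 0.403% of all genes were called lower. The part of the choroid plexus, meningeal, mural and endothelial lists in the H19 result was not tested.

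H19 lies on GRCm38 chromosome 7, 142575529 to 142578143 on the minus strand, and its transcript holds the hairpin of miR-675. The mature RNAs of that hairpin were not measured here, and they are shown because H19 is their precursor, with the seed (bases 2 to 8) in capitals, from RefSeq (GRCm38.p6).
mmu-miR-675-5p: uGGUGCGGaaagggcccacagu
mmu-miR-675-3p: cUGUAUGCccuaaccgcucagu
The arms do not share a seed.

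Igf2, the paternally expressed growth factor on the same chromosome, followed a different pattern. It measured 42.7, 70.5 and 70.7 CPM in CAP1-KO, against 39.8, 45.4 and 45.4 CPM in Control. FCRE4 and FCRE5 lay above all Control libraries and FCRE3 lay among them. The log2 fold change was 0.45 (SE 0.18, limma adjusted p = 0.196), and 0.69 without FCRE3 (limma adjusted p = 0.0196), with limma adjusted p of 0.0196 to 0.744 over 18 alternatives. The same libraries, FCRE4 and FCRE5, were those with the high meningeal sum, and Igf2 is known to be expressed in meninges and choroid plexus. The choroid plexus sum had another order, at 105, 121 and 55.5 CPM in FCRE3, FCRE4 and FCRE5. The part of both lists in the Igf2 result was not tested. The ratio of H19 to Igf2 reads was 1.89, 1.35 and 1.52 in CAP1-KO, against 0.736, 0.588 and 0.911 in Control, so every CAP1-KO library exceeded every Control library. Igf2r, the receptor that clears IGF2, measured 94.2 ± 3.85 CPM in CAP1-KO and 101 ± 4.85 CPM in Control (mean ± SD, n = 3 each, log2 fold change -0.10, limma adjusted p = 0.324).

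Because the study concerns SRF, the factor that binds the CArG box, promoter windows were searched for that motif on both strands. The windows span 250 bases before to 50 after a RefSeq start site and matched 30 of the 37 genes by symbol (47 windows). H19, Impact and Kcnk9 had no window, so the genes called over all libraries were not searched for any motif. A CArG box was present in 2 of 47 windows (4.26%), against 1.63% of 32851 windows of all genes. These belong to Igf2 and Meg3 and are shown with the box in capitals.
Igf2, GRCm38.p6 chr7:142661222-142661521, minus strand: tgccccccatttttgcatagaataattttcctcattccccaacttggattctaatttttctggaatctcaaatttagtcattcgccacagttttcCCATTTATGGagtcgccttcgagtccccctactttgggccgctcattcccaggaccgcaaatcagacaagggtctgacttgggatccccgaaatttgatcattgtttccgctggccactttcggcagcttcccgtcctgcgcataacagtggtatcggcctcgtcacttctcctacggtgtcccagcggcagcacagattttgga
Meg3, GRCm38.p6 chr12:109545148-109545447, plus strand: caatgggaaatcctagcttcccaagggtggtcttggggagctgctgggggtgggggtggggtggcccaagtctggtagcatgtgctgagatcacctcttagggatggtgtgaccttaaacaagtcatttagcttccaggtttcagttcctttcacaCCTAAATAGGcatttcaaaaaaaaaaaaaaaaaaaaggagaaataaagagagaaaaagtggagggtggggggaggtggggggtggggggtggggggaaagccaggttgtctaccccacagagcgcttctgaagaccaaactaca
Both windows lie inside the annotated genes (Igf2 142650766 to 142666816, Meg3 109541001 to 109571726), not at the outermost start. Use of these start sites was not measured. Neither Igf2 nor Meg3 passed the test over all libraries.

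**Figure D4:**
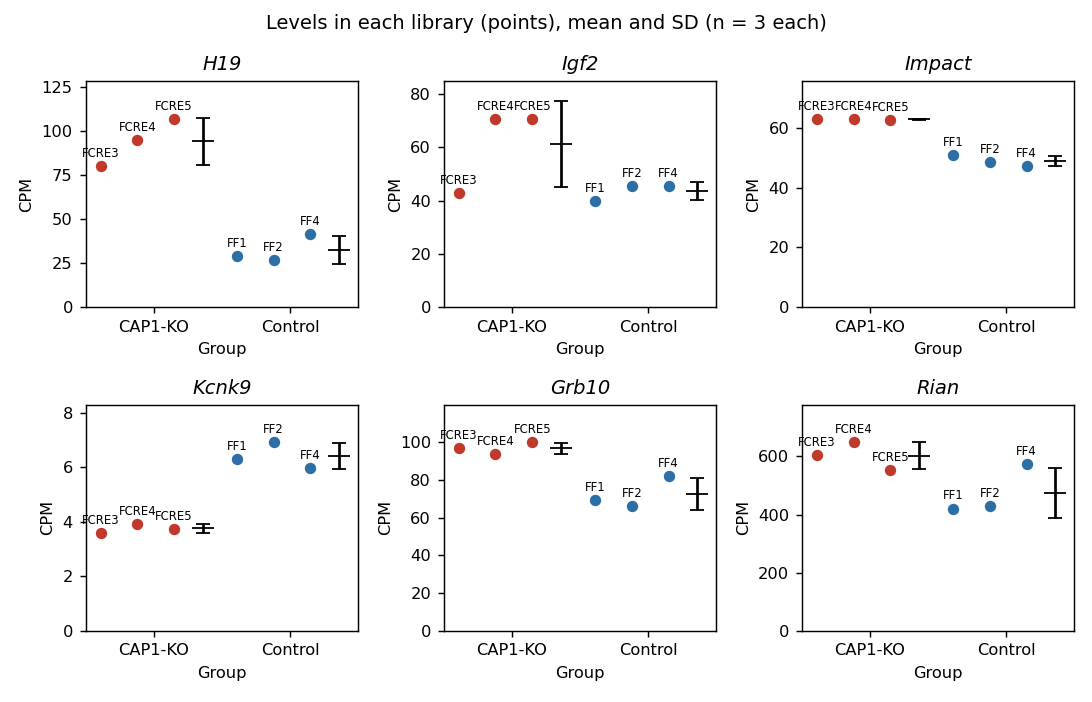
CPM (vertical axes from 0) of 6 imprinted genes in each library, with the mean and SD of each group (n = 3 each). H19, Impact and Grb10 are above every Control library in every CAP1-KO library and Kcnk9 is below, while Igf2 and Rian overlap between the groups.

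Impact, on chromosome 18, was the most even of the changes. Its protein holds back the stress kinase GCN2 by competing for its activator, and it is abundant in neurons and paternally expressed. It measured 63.2, 63.0 and 62.9 CPM in CAP1-KO, against 50.9, 48.8 and 47.4 CPM in Control. The CAP1-KO libraries differed from each other by less than 1 CPM and all lay above the Control group. Impact rose 1.29-fold (log2 fold change 0.36, SE 0.05, limma adjusted p = 0.0177), and FF4 was the lowest library, so this gene did not share the FF4 pattern. The call held in 12 of 18 alternatives, over which the log2 fold change ranged from 0.33 to 0.42 and the limma adjusted p reached 0.208. The call was lost with the Xist covariate, against FF4 alone, and without FF1 (limma adjusted p = 0.0534), FF2 (limma adjusted p = 0.0928), FCRE3 (limma adjusted p = 0.0760) or FCRE5 (limma adjusted p = 0.136).

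Kcnk9 fell and its neighbour Trappc9 did not pass the test. Kcnk9 encodes a potassium leak channel that sets the resting potential of neurons, and its maternal allele is the active one in brain. It measured 3.59, 3.93 and 3.73 CPM in CAP1-KO, against 6.32, 6.91 and 5.98 CPM in Control. The groups were well apart at this low level, with 58.6% of the Control mean left. The log2 fold change was -0.64 (SE 0.09, limma adjusted p = 0.0246, called in 10 of 18 alternatives, adjusted p up to 0.349). Over the 18 it ranged from -0.77 to -0.55. The call was lost with no filter on low values, the Nkx2-1 or Xist covariate, against FF4 alone, and without FF1 (limma adjusted p = 0.141), FF2 (limma adjusted p = 0.114), FCRE3 (limma adjusted p = 0.0879) or FCRE5 (limma adjusted p = 0.146). Trappc9, a subunit of a vesicle tethering complex next to Kcnk9 on chromosome 15, measured 67.5, 64.5 and 65.2 CPM in CAP1-KO, against 79.3, 71.4 and 67.1 CPM in Control (log2 fold change -0.14, limma adjusted p = 0.254). Peg13, a noncoding RNA inside Trappc9 on the same strand, measured 293 to 307 CPM in CAP1-KO, against 297 to 330 CPM in Control. How reads of the nested pair were divided is not given in the sources used here.

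Grb10, an adaptor that binds insulin and IGF receptors and restrains their signal, lay just outside the threshold. It is read from the maternal allele in most tissues and from the paternal allele in neurons. The gene measured 96.8, 93.9 and 99.9 CPM in CAP1-KO, against 69.4, 66.1 and 82.0 CPM in Control. All CAP1-KO libraries lay above all Control libraries, with FF4 the nearest of these. The log2 fold change was 0.42 (SE 0.08, limma adjusted p = 0.0626), 0.51 without FF4 (limma adjusted p = 0.000262) and 0.24 against FF4 alone (limma adjusted p = 0.416). The authors' deposited table calls it, with an FDR of 0.0411. That table calls 3 of the 37 higher (H19, Impact and Grb10) and 1 lower (Kcnk9), where it calls 0.813% of its 27179 genes (0.401% higher, 0.412% lower).

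Among the windows, the hexamer TGCCGC, which the imprint-keeping factor ZFP57 binds when methylated, was found on either strand in 11 of 47 (23.4%), against 11.6% of windows of all genes. Of the genes with the hexamer, Grb10, Zdbf2, Meg3, Nnat and Zim1 rose where FF4 was left out. Igf2, Mest, Plagl1 and Snrpn did not, and Calcr was not tested. In that setting 18 of all 34 tested members rose, where 9.31% of all genes were called higher. Whether the hexamer goes with a change in level was not tested. Grb10 and Zdbf2 are shown as examples, with each hexamer, on either strand, in capitals.
Grb10, GRCm38.p6 chr11:12037371-12037670, minus strand: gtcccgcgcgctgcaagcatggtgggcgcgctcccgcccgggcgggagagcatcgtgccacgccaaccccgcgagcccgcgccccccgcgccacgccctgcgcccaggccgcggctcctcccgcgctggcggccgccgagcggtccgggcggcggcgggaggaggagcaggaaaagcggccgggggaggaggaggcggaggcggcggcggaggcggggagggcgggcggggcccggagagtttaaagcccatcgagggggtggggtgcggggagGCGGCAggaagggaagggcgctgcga
Zdbf2, GRCm38.p6 chr1:63200108-63200407, plus strand: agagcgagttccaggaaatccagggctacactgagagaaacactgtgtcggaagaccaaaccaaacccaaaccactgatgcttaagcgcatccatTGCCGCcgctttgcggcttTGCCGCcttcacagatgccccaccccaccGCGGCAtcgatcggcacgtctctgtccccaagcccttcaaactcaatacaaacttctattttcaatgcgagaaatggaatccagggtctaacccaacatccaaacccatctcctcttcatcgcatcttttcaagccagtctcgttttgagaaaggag
The Grb10 window lies inside the annotated gene (11930508 to 12038683), and the Zdbf2 window lies upstream of its annotated gene (63273265 to 63314576). Use of these start sites was not measured. The Grb10 window holds 1 such hexamer and the Zdbf2 window 3, and whether any was methylated in this tissue was not measured.

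The 4 genes of the Dlk1-Meg3 domain on chromosome 12 were higher in every CAP1-KO library than in FF1 and FF2, and Dlk1 and Meg3 were higher still in FF4. Its maternal allele gives the noncoding RNAs Meg3, Rian and Mirg, which host small RNAs, among them 14 miRNA hairpins within Mirg and 3 within Rian. Meg3 measured 3294, 3442 and 3030 CPM in CAP1-KO, against 2377, 2240 and 3644 CPM in Control. FF4 was the highest of all libraries for Meg3 (log2 fold change 0.27, SE 0.18, limma adjusted p = 0.40). Rian measured 605, 648 and 554 CPM in CAP1-KO, against 421, 431 and 574 CPM in Control (log2 fold change 0.35, SE 0.12, limma adjusted p = 0.150). Mirg measured 15.6, 16.5 and 16.2 CPM in CAP1-KO, against 12.3, 12.6 and 15.5 CPM in Control (log2 fold change 0.25, limma adjusted p = 0.173). The ratio of Rian to Meg3 reads was 0.185 ± 0.00294 in CAP1-KO and 0.176 ± 0.0174 in Control (mean ± SD, n = 3 each), which is within the spread of the Control libraries. Dlk1, the paternally expressed membrane ligand of the Notch family, measured 11.3, 12.3 and 9.41 CPM in CAP1-KO, against 8.18, 6.73 and 15.4 CPM in Control (log2 fold change 0.18, limma adjusted p = 0.709). The log2 fold changes of Dlk1 and Meg3 were 0.50 and 0.49 without FF4 and -0.46 and -0.16 against FF4 alone.

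Among the tested members, the widest spread within the Control group, on the log2 scale, was in genes known for ventral brain regions. Peg10, a gene derived from a retrotransposon, measured 82.0, 72.9 and 57.8 CPM in CAP1-KO, against 33.5, 31.6 and 98.4 CPM in Control. Asb4, a ubiquitin ligase subunit in the same domain on chromosome 6, measured 11.2, 10.6 and 7.11 CPM in CAP1-KO, against 2.76, 1.97 and 13.6 CPM in Control. Magel2, a MAGE family gene of the Prader-Willi region, measured 25.9, 24.8 and 19.1 CPM in CAP1-KO, against 11.7, 11.05 and 33.8 CPM in Control. For these 3 genes FF4 exceeded every CAP1-KO library, and FF1 and FF2 lay below all of them. Their log2 fold changes were 0.56, 0.94 and 0.46 with all libraries (limma adjusted p = 0.431, 0.338 and 0.496), and turned to -0.48, -0.49 and -0.53 against FF4 alone. The order of the libraries was that of the striatum sum, whose part in these values was not tested.

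Other genes of the Peg10 domain had less spread. Peg10 and Sgce, a sarcoglycan gene, start beside each other on opposite strands. Sgce measured 28.8, 29.6 and 29.1 CPM in CAP1-KO, against 26.7, 25.1 and 28.3 CPM in Control (log2 fold change 0.13, limma adjusted p = 0.260). The ratio of Peg10 to Sgce reads was 2.85, 2.46 and 1.99 in CAP1-KO, against 1.25, 1.26 and 3.48 in Control. In the same domain Ppp1r9a encodes the actin-binding spine protein neurabin. It measured 229, 222 and 227 CPM in CAP1-KO, against 221, 229 and 231 CPM in Control. The means were 226 ± 3.91 CPM in CAP1-KO and 227 ± 5.21 CPM in Control (mean ± SD, n = 3 each, log2 fold change -0.01, SE 0.04, limma adjusted p = 0.947).

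Peg3, Usp29 and Zim1, neighbours on proximal chromosome 7, were also high in FF4. Peg3, a zinc finger factor, measured 155, 161 and 147 CPM in CAP1-KO, against 106, 103 and 163 CPM in Control (log2 fold change 0.35, limma adjusted p = 0.244, 0.56 without FF4 and -0.08 against FF4 alone). The promoter windows of Peg3 and Usp29, a ubiquitin protease, share 263 of 300 bases on opposite strands. Usp29 measured 106, 99.3 and 87.7 CPM in CAP1-KO, against 75.1, 80.4 and 104 CPM in Control (log2 fold change 0.18, limma adjusted p = 0.415). Zim1 ranged from 12.8 to 16.7 CPM in CAP1-KO, against 10.3 to 16.2 CPM in Control. Zdbf2, a zinc finger gene on chromosome 1, ranged from 73.6 to 89.9 CPM in CAP1-KO, against 54.8, 56.7 and 89.9 CPM in Control (log2 fold change 0.31, limma adjusted p = 0.339).

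**Figure D5:**
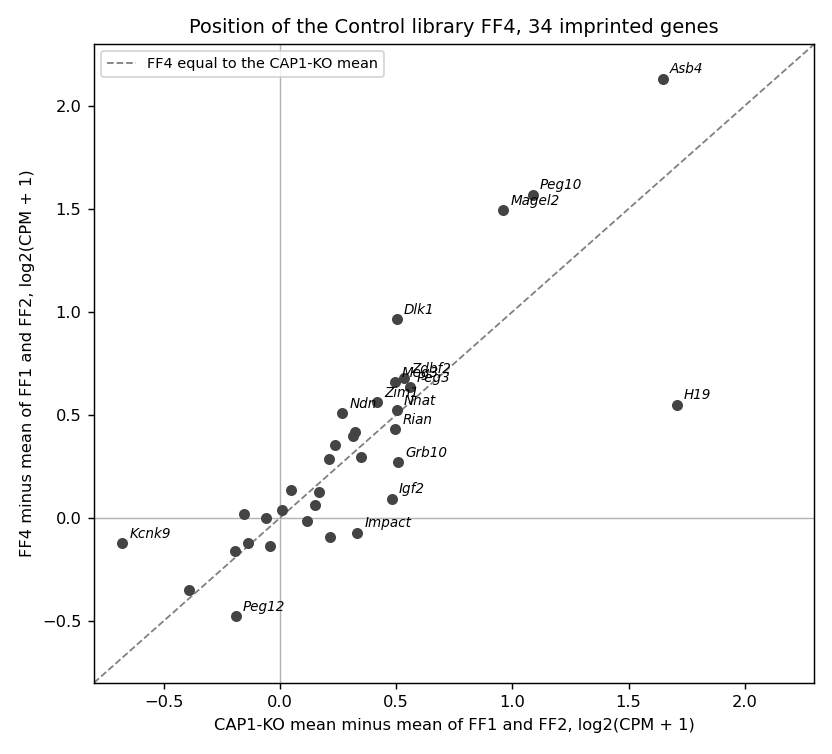
For the 34 tested imprinted genes, the CAP1-KO mean minus the mean of FF1 and FF2 (horizontal) and FF4 minus that same mean (vertical), both on the log2(CPM + 1) scale, where the shared subtraction ties the axes together. Most genes lie near the dashed line, where FF4 equals the CAP1-KO mean, with Asb4, Peg10 and Magel2 above it and H19, Igf2, Impact and Kcnk9 off it.

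In 25 of the 34 tested members (73.5%) FF4 was nearer the CAP1-KO mean than the mean of FF1 and FF2, against 63.8% of all genes tested. The 9 exceptions included H19, Igf2, Impact and Kcnk9.

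On distal chromosome 2, Nnat and Blcap had similar patterns over the libraries, and neither passed the test. Nnat encodes a small membrane protein of developing brain and lies within Blcap on the opposite strand. Nnat measured 1713, 1610 and 1680 CPM in CAP1-KO, against 1229, 1127 and 1692 CPM in Control (log2 fold change 0.33, SE 0.14, limma adjusted p = 0.222). Blcap measured 139, 139 and 129 CPM in CAP1-KO, against 110, 109 and 144 CPM in Control (log2 fold change 0.18, limma adjusted p = 0.346). The libraries were strand-specific, but whether counting used the strand is not given in the sources used here. The ratio of Nnat to Blcap reads was 12.3 ± 0.713 in CAP1-KO and 11.1 ± 0.691 in Control.

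Gnas, which encodes the stimulatory G protein subunit, was lower in every CAP1-KO library than in any Control library without passing the test. It measured 862, 936 and 857 CPM in CAP1-KO, against 1014, 952 and 995 CPM in Control. The groups did not overlap, though FCRE4 and FF2 were close (log2 fold change -0.16, SE 0.06, limma adjusted p = 0.190). Cdkn1c, an inhibitor of cyclin-dependent kinases that is maternally expressed, measured 55.4, 63.9 and 71.8 CPM in CAP1-KO, against 83.1, 83.6 and 65.2 CPM in Control (log2 fold change -0.27, SE 0.12, limma adjusted p = 0.225, -0.04 against FF4 alone). Its domain is silenced in cis by the paternal RNA Kcnq1ot1, which measured 65.7 ± 4.26 CPM in CAP1-KO and 68.4 ± 1.33 CPM in Control (n = 3 each, limma adjusted p = 0.563) and overlaps Kcnq1 on the other strand. Cd81, a tetraspanin of that domain, differed by 0.00 on the log2 scale (SE 0.06).

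Mest, a paternally expressed gene of the hydrolase family, was higher in CAP1-KO without passing the test and without the FF4 pattern. It measured 113, 98.6 and 118 CPM in CAP1-KO, against 98.9, 89.6 and 88.4 CPM in Control. FCRE4 and FF1 overlapped (log2 fold change 0.25, SE 0.08, limma adjusted p = 0.131). Plagl1, a zinc finger factor known to control other imprinted genes such as H19 and Igf2, measured 58.0, 48.4 and 54.8 CPM in CAP1-KO, against 48.7, 47.5 and 50.3 CPM in Control (log2 fold change 0.13, SE 0.07, limma adjusted p = 0.309). Inpp5f, a phosphoinositide phosphatase, was high in FF4. It measured 390, 394 and 369 CPM in CAP1-KO, against 337, 327 and 405 CPM in Control. The means were 384 ± 13.1 CPM in CAP1-KO and 356 ± 42.4 CPM in Control (SD, n = 3 each, limma adjusted p = 0.446). The log2 fold change was 0.12 with all libraries, 0.21 without FF4 (limma adjusted p = 0.00793) and -0.08 against FF4 alone.

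In the Prader-Willi and Angelman region, no member passed the test. Ndn, the neuronal MAGE gene necdin, measured 348, 370 and 316 CPM in CAP1-KO, against 301, 272 and 407 CPM in Control (log2 fold change 0.10, limma adjusted p = 0.714). FF4 was above every CAP1-KO library, and FF1 and FF2 were below all of them. The log2 fold change was 0.27 without FF4 (limma adjusted p = 0.0218), 0.34 against FF2 alone (limma adjusted p = 0.0472) and -0.24 against FF4 alone (limma adjusted p = 0.538), with limma adjusted p of 0.0218 to 0.954 over 18 alternatives. Ube3a, the ubiquitin ligase lost in Angelman syndrome, measured 101 ± 2.54 CPM in CAP1-KO and 101 ± 6.05 CPM in Control (n = 3 each, log2 fold change 0.00, SE 0.05). Mkrn3 measured 18.0 to 20.4 CPM in CAP1-KO, against 17.1 to 17.9 CPM in Control, and Peg12 3.38 to 4.40 CPM in CAP1-KO, against 3.08 to 4.97 CPM in Control. Snrpn, which encodes a splicing protein known to be abundant in brain, measured 2.41, 1.86 and 2.13 CPM in CAP1-KO, against 1.70, 1.61 and 2.39 CPM in Control. It shares its strand and position with Snurf. That gene measured 0.27, 0.14 and 0.35 CPM in CAP1-KO, against 0.10, 0.03 and 0.15 CPM in Control. Whether reads that fit both genes were counted is not given in the sources used here, so the Snrpn level is uncertain.

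The other 3 members lay below 1 CPM and were not tested. Phlda2 had 5, 8 and 10 reads in CAP1-KO (23 in all) and 6, 8 and 7 reads in Control (21 in all). After scaling for depth this is a ratio of 0.995 with an exact 95% interval of 0.527 to 1.89. Calcr, the calcitonin receptor, had 21, 25 and 15 reads in CAP1-KO and 22, 12 and 27 reads in Control, a ratio of 0.909 with an interval of 0.627 to 1.32. Slc22a18 had 3 reads in CAP1-KO and 1 in Control, a ratio of 2.73 with an interval of 0.219 to 143. These intervals cover counting error only.

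Per kilobase of the longest annotated transcript, Nnat was the most abundant member, at 1152 CPM per kb in CAP1-KO and 932 CPM per kb in Control. Gnas stood at 224 CPM per kb in CAP1-KO and 250 CPM per kb in Control, and Meg3 at 224 CPM per kb in CAP1-KO and 189 CPM per kb in Control. Ndn followed at 93.3 CPM per kb in CAP1-KO and 88.3 CPM per kb in Control. H19 stood at 41.2 CPM per kb in CAP1-KO and 14.2 CPM per kb in Control, and Kcnk9 at 0.305 CPM per kb in CAP1-KO and 0.520 CPM per kb in Control. Where shorter transcripts dominate, these levels are too low.

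By the parental allele that is known to be expressed, the 18 paternal genes had a median log2 fold change of 0.18, and 1 rose (Impact) of 18 tested. Their fold change was positive in 16 of 18, where 48.3% of all tested genes were positive, 0.562% were called higher and 0.403% lower. Of 18 maternal genes 15 were tested, 1 rose (H19), 1 fell (Kcnk9), the median was 0.00 and 9 were positive. The median of CAP1-KO minus FF4 in log2 level was -0.07 for the paternal and -0.04 for the maternal genes. The difference between the parental sets was not tested. Grb10, listed as differing by tissue, was counted in neither. The sets follow a listed parent for each gene, and whether only that allele was read in this cortex was not measured.

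Over all libraries, no other imprinted gene and no gene of the machinery that keeps imprints passed the adjusted threshold. Of 48 further imprinted genes 46 were in the table and 33 were tested, with 0 called by limma or limma-voom, 10 at an unadjusted p under 0.05 (23.0% of all genes were) and a median log2 fold change of 0.05. Without FF4 11 rose and 5 fell, and against FF2 alone 10 rose and 1 fell, where 28.2% and 13.2% of all genes were called. The most positive and most negative fold changes among them were those of Ddc, a neurotransmitter-synthesis enzyme, at 5.31, 5.98 and 4.17 CPM in CAP1-KO, against 0.96, 0.71 and 3.60 CPM in Control (log2 fold change 1.29, limma adjusted p = 0.108), and of Tnfrsf23, a decoy receptor gene, at 1.77 ± 0.146 CPM in CAP1-KO and 2.59 ± 0.0824 CPM in Control (mean ± SD, n = 3 each, -0.38, limma adjusted p = 0.107). Of 28 tested genes for the upkeep of imprints 0 were called by limma or limma-voom, with 5 at an unadjusted p under 0.05 (23.0% of all genes were) and a median of -0.03. Without FF4 8 of the 28 fell and 0 rose, and against FF2 alone 6 fell and 0 rose, where 18.9% and 8.58% of all genes were called lower. Trim28, the corepressor that ZFP57 recruits, measured 342, 339 and 353 CPM in CAP1-KO, against 464, 442 and 349 CPM in Control (log2 fold change -0.27, limma adjusted p = 0.173). Zfp57 measured 354 to 380 CPM in CAP1-KO, against 367 to 415 CPM in Control, and the maintenance methylase Dnmt1 measured 237 to 260 CPM in CAP1-KO, against 241 to 272 CPM in Control. Hells, a chromatin remodeller, had the most positive log2 fold change of this list, 0.24 (limma adjusted p = 0.154).

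Receptors, binding proteins and RNA-binding partners of IGF2 were mostly lower in value. Of 15 listed 13 were tested, 0 were called by limma or limma-voom, 4 had an unadjusted p under 0.05 (23.0% of all genes had), and 3 of 13 were positive (48.3% of all genes were), with a median of -0.20. Without FF4 1 rose and 9 fell, and against FF2 alone 5 fell, where 28.2% and 13.2% of all genes were called. Igf2bp1, which binds Igf2 mRNA, measured 26.3, 26.7 and 35.1 CPM in CAP1-KO, against 45.7, 47.7 and 30.8 CPM in Control (log2 fold change -0.47, limma adjusted p = 0.171). Igf1r, the receptor through which IGF2 signals, measured 203, 199 and 198 CPM in CAP1-KO, against 265, 267 and 192 CPM in Control (log2 fold change -0.25, limma adjusted p = 0.256). For each of the 13, FF4 was nearer the CAP1-KO mean than the mean of FF1 and FF2, as it was for 63.8% of all genes. Igf1, with the most positive fold change of the list, measured 10.1 to 12.3 CPM in CAP1-KO, against 7.89 to 11.2 CPM in Control (log2 fold change 0.22, limma adjusted p = 0.330).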

How the data were processed

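RNA was measured in 3 CAP1-KO and 3 Control libraries, made with poly(A) selection and strand-specific chemistry per the labels' protocols. The authors used STAR and edgeR with GRCm38 (mm10), per the submitters' processing notes; the sources used here do not give their versions, the read counter, the annotation or filters. The authors deposited log2 normalized counts per library, and their own log2 fold change, F score, p-value and FDR, per the file headers. Columns were assigned to groups by genotype in their names (FF, FCRE), since their numbers do not match the labels' replicates. The labels call the libraries biological replicates and do not give litters.

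All libraries share 1 lowest value (antilog 0.0584 CPM). With it removed, 100% of nonzero values came within 0.01 of a whole read, which gave CPM and reads (32443864 to 36302598 per library, 31.2 to 37.3 reads per CPM). Replicates differed by more than sampling noise, with a median chi-square per gene of 1.00 to 3.30.

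Genes whose mean reached 1 CPM were tested on log2(CPM + 1) by limma (version 3.58.1, R version 4.3.3) with a trended prior and no covariate. This pseudocount understates changes of low genes. The threshold was a Benjamini-Hochberg adjusted p of 0.05. In 3 against 3 an exact permutation p cannot fall below 0.1. On simulated reads of 13885 genes for CAP1-KO against Control, 80 of 100 genes changed 1.5-fold and 93 of 100 changed 2-fold were recovered, with 11 unchanged genes called. These reads were drawn gene by gene, without a departure of a library shared over genes like that of FF4. Recovery under such a departure was not tested. Alternatives were other scalings, limma-voom, other filters and pseudocounts, covariates and left-out libraries. TMM and RLE factors were computed by their published formulas. The members, lists, tests and alternatives were chosen with earlier results of these data known.

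Per-library values are given for members past the threshold, with an unadjusted p under 0.05, an absolute log2 fold change of at least 0.4, one of the 8 highest levels, or at least 20 reads below the filter, and, as their values were read, for others whose libraries diverged. Of the other lists, called genes or the largest change each way are named, and Zfp57, Dnmt1, Igf1r, Peg13 and Drd1 were chosen after their values were seen. Coordinates and transcript lengths are from GENCODE vM21 (GRCm38).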

Additional observations from a re-analysis of the deposited data

How the results depend on the processing

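No paired analysis was possible because the library columns share only the number 4 between the groups and do not carry the labels' replicate numbers.

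The count of imprinted genes called (3) was 15 against FF2 alone, 1 against FF4 alone, 0 with the Xist covariate and 0 to 21 when each library was left out. Their median log2 fold change (0.18) was -0.052 against FF4 alone and -0.045 with the Nkx2-1 covariate, and moved by less than the spread of the Control libraries in all other settings. The count over all genes (134) was 1835 against FF2 alone, 56 against FF4 alone, 80 with the Nkx2-1 covariate, 26 with the Xist covariate, 88 with no filter, and 36 to 3914 when each library was left out. The other imprinted genes called were 11 against FF2 alone and 0 to 16 with a library left out, the imprinting control genes 6 and 0 to 8, and the IGF2 partner genes 5 and 0 to 10. Against FF4 alone and with the Nkx2-1 covariate the log2 fold change turned to -0.48 and -0.40 for Peg10, -0.49 and -0.37 for Asb4, and -0.53 and -0.45 for Magel2. The cause was not tested.

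RLE factors, TMM factors (equal to the authors' scaling), total reads, limma-voom, the deposited log2 values, a pseudocount of 0.1 and a minimum of 5 CPM kept H19, Impact and Kcnk9 called. Scaling to total reads moved the median of all genes to 0.06 and the share of positive fold changes to 64.9%. With 3 libraries a group no test of single outlying samples was run. Depth limits Phlda2, Slc22a18 and Calcr most, at under 1 CPM.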
